A study of Mus musculus with 90 samples.

Results

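The PYHIN (Ifi200) genes examined were Aim2, Ifi202b, Ifi203, Ifi204, Ifi207 and Mndal, which are 6 of the 53697 genes in a table of 3′ digital gene expression counts, a method that sequences the 3′ ends of transcripts. They were taken as the rows whose Ensembl identifiers carry those symbols. Counts came from 2 mouse tumour lines, YUMM2.1, a melanoma line of C57BL/6 origin, and CT26, a colon carcinoma line of BALB/c origin, with 45 samples per line in 15 groups of 3 replicate experiments. Naive cells received bovine serum albumin (BSA) as control or 50 IU/mL interferon gamma (IFNγ) for 2 h or 24 h, and other cultures were kept for 1, 2 or 3 weeks with BSA or with IFNγ. The chronically exposed cells were harvested either without fresh IFNγ or after a rechallenge of 2 h or 24 h. All cultures were grown in RPMI medium and plated 48 h before harvest. Each strain was represented by 1 line, so that strain, tissue of origin and cell line cannot be told apart in any comparison between CT26 and YUMM2.1.

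PYHIN proteins are interferon-inducible proteins, most of which carry a pyrin domain for protein contacts and 1 or more HIN domains that bind DNA. AIM2 is a cytosolic DNA sensor that assembles the inflammasome with the adaptor ASC and caspase-1, whereas p202, the product of Ifi202b, has HIN domains without a pyrin domain and inhibits AIM2. The product of Ifi204, p204, binds DNA and signals through STING, and it also interacts with the retinoblastoma protein, while the products of Ifi203, Ifi207 and Mndal are pyrin- and HIN-domain proteins with less settled roles. The mouse gene cluster differs between inbred strains in gene content and sequence, and Ifi202b is known for its strain-dependent expression.

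Total counts per sample were 274719 to 3161276 in YUMM2.1 (median 1403265) and 295157 to 2205285 in CT26 (median 1318011). Samples below 25% of the median of their line were replicate 3 of the 3-week chronic group in YUMM2.1 and replicate 3 of the 1-week and of the 3-week chronic groups in CT26, and values without them are given where they touch a result. No 2 samples of a group held identical values. Levels are given as raw counts and as CPM, counts scaled to a common library size after TMM scaling, each with SD and n = 3. Differences are log2 fold changes from edgeR's quasi-likelihood test over all genes that passed a filter on low counts. The SE given with them was calculated back from the fold change and the F statistic of that test. Intervals of a log2 fold change are approximate 95% intervals built from this SE. A gene passed the test at a Benjamini-Hochberg adjusted p under 0.05 over all genes tested. The p-values rest on the spread between replicate experiments, within 1 line or, for comparisons between the lines, within both lines. They do not cover how other lines would vary. Of 7 melanocyte genes Sox10 was counted in all 45 YUMM2.1 samples, with 6 to 97 counts, and was at 0 in CT26. Tyrp1 was at 0 in YUMM2.1 and Mlana was counted in 1 sample there. Pmel was counted in 15 YUMM2.1 and 2 CT26 samples. Dct, Mitf and Tyr were counted in 25, 38 and 11 YUMM2.1 samples but in 38, 39 and 17 CT26 samples. Of 7 epithelial genes Krt18 and Krt20 were counted in all 45 CT26 samples, whereas Epcam, Cdh1, Cldn4 and Cldn7 were at 0 in CT26. The summed level of 11 blood cell genes was 1.85 to 24.1 CPM in YUMM2.1 and 1.46 to 16.6 CPM in CT26. PYHIN genes are also expressed in blood cells. Of this list Cd3e, Adgre1 and Tyrobp were at 0 in both lines. In contrast, Cd68 was counted in 43 of 45 samples of each line, with up to 42 counts in YUMM2.1 and 10 in CT26. Fcer1g was counted in 38 YUMM2.1 and 2 CT26 samples, and Ptprc in 11 and 31. Of 4 fibroblast and endothelial genes Pecam1 was counted in all samples of both lines, with 109 to 1300 counts in YUMM2.1 and 118 to 689 in CT26, and the summed level of the list was 248 to 461 CPM and 245 to 526 CPM, whereas Cdh5 was at 0 in CT26 and had at most 1 count in a YUMM2.1 sample. The part of these marker levels in the results was not tested.

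In the GRCm38 assembly the members lie on chromosome 1. Aim2 (ENSMUSG00000037860.15) is on the plus strand at chr1:173350879-173466040. The other members are on the minus strand, with Ifi207 (ENSMUSG00000073490.11) at chr1:173723427-173741747, Ifi204 (ENSMUSG00000073489.6) at chr1:173747293-173766943, Mndal (ENSMUSG00000090272.8) at chr1:173849126-173942491, Ifi203 (ENSMUSG00000039997.16) at chr1:173920407-173942672 and Ifi202b (ENSMUSG00000026535.9) at chr1:173962568-173982744. Mndal spans the neighbouring family gene Ifi211 and overlaps Ifi203, with which it shares 37 exonic bases. Near-identical copies can split reads during counting, so the share of 31-base words in the last 500 bases of the transcripts that also occurred in another PYHIN gene was computed. This share was 0% for Aim2 and Ifi202b, 6.81% for Ifi203, 11.5% for Ifi204, 13.9% for Ifi207 and 35.6% for Mndal. Over all transcript sequence it was 29.4% for Ifi204, 25.3% for Mndal, 20.7% for Ifi203 and 13.7% for Ifi207. Counts of Mndal, Ifi204, Ifi203 and Ifi207 may therefore hold reads of other copies, by an amount that these shares do not measure. Those of Aim2 and Ifi202b rest on 3′ sequence with no such word in common with the other PYHIN genes.

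Promoter sequence was searched on both strands for a core of the interferon-stimulated response element (ISRE), which is GAAA, any 2 bases and GAAA, and for the gamma-activated site (GAS), TTCNNNGAA, since these are the elements bound by interferon-activated IRF and STAT factors. RefSeq promoter windows of 250 bases before to 50 bases after a start, in GRCm38.p6, were present for 5 members in 7 windows, and for Ifi204 none was used. The ISRE core was found in 4 of these 7 windows, against 3.44% of all 32851 windows. It was also found in 6 of 7 windows of other PYHIN genes, so it was not particular to the members. The 2 windows of Mndal overlap, as do the 2 of Ifi203, so the windows are not independent. The GAS was found in 1 of the 7 member windows, against 8.3% of all windows, and 1 window cannot be told apart from that share. The Ifi202b window held the GAS and no ISRE core, and the Aim2 window held neither motif. The sites are shown to set the ISRE cores of 3 members beside the GAS of Ifi202b, each in 30 bases of sequence, 5′ to 3′ on the strand of the gene (minus strand), the motif in capitals:
Ifi207, chr1:173741831-173741860: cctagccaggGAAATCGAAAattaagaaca
Mndal, first window, chr1:173880204-173880233: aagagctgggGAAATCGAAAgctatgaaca
Mndal, second window, chr1:173879993-173880022: ttttgagtcaTTTCTCTTTCtactcaaaac
Ifi203, second window, chr1:173942508-173942537: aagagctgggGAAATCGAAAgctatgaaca
Ifi202b, chr1:173982973-173983002: ctgtcatgatTTCTCAGAAtaactactgag
The ISRE core began at position -41 from the start of Ifi207, at -36 in the first and -54 in the second window of Mndal and at -35 in the second window of Ifi203, and the GAS of Ifi202b began at -148. The 30 bases around the first Mndal site and the Ifi203 site were identical. Both Mndal sites also fall within annotated exons of other Mndal transcripts. A match describes letters of the C57BL/6 reference and not a bound site, and the sequence of CT26 may differ.

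The longer stretches before the starts of Ifi203 and Ifi202b, neighbours on the chromosome, are printed to set a window with the ISRE core beside one with the GAS, again on the minus strand with motifs in capitals:
Ifi203, chr1:173942493-173942655: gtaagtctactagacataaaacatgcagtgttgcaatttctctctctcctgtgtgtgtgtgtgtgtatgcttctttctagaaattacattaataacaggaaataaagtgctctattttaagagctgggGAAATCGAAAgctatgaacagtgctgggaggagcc
Ifi202b, chr1:173982845-173983094: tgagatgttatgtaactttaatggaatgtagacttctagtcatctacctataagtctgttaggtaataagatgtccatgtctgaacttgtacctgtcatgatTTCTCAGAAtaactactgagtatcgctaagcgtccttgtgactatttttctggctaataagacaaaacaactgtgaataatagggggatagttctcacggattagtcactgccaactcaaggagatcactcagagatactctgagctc
The Ifi203 stretch is from the second of its 2 windows. It lies within the annotated span of Ifi203 and directly beside the annotated 5′ end of Mndal, and the first window, before the outermost start of Ifi203, held neither motif. Ifi203 was counted in both lines, but Ifi202b, as given next, was not detected in YUMM2.1.

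The question of how the family differed between the lines before any IFNγ was addressed in the 0-week controls. Ifi202b and Ifi203 were higher in CT26, Aim2 and Mndal were higher in YUMM2.1, and Ifi204 and Ifi207 did not pass the test. Thus 4 of the 6 members differed, against 46% of all 10339 genes tested between these lines, so that the share of members was near that of genes in general. Ifi202b, the AIM2 inhibitor, had 34, 48 and 51 counts in the CT26 controls (30.4 ± 3.8 CPM) and 0 counts in the 3 YUMM2.1 controls. Over all samples it had 2870 counts in CT26, with 15 to 131 in each of 45 samples, and 0 of 69880769 counts in YUMM2.1, which allows a level of up to 0.0407 CPM. With a floor of 3 counts over the group, Ifi202b was at least 44.9-fold higher in the CT26 controls (adjusted p = 3.47e-16), and at least 1356-fold higher over all samples of the lines. No YUMM2.1 sample overlapped any CT26 sample for this gene.

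Aim2, the inflammasome sensor, had 31, 11 and 16 counts in the YUMM2.1 controls (12.9 ± 3.1 CPM) and 9, 4 and 3 counts in the CT26 controls (3.84 ± 2.67 CPM). The YUMM2.1 samples were all above the CT26 samples in CPM, and the log2 difference of CT26 less YUMM2.1 was -1.78 ± 0.51 (adjusted p = 0.00274). Pooled over the 3 samples, 58 against 16 counts gave a ratio of 3.58 with a 95% counting interval of 2.03 to 6.67. Ifi203 had 12, 3 and 9 counts in the YUMM2.1 controls (5.09 ± 1.5 CPM) against 34, 32 and 35 in the CT26 controls (23.4 ± 2.35 CPM), a log2 difference of 2.09 ± 0.32 (adjusted p = 4.9e-08) with no overlap of the groups.

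Mndal had 34, 26 and 27 counts in the YUMM2.1 controls (21.4 ± 7.0 CPM) and 18, 17 and 11 in the CT26 controls (10.8 ± 3.4 CPM). The groups did not overlap in CPM, and the log2 difference was -0.93 ± 0.33 (adjusted p = 0.0145). This call was lost without the samples of replicate 2 and also without those of replicate 3, with an adjusted p of up to 0.0979. Ifi204 had 76, 44 and 49 counts against 42, 46 and 36, a log2 difference of -0.45 ± 0.22 that did not pass the test (adjusted p = 0.0931), although it passed with scaling by library totals (-0.62, adjusted p = 0.0161). For Ifi207 the YUMM2.1 controls held 0, 0 and 2 counts and the CT26 controls 0 counts, so that no ratio was formed.

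The line difference ran through the cluster gene by gene rather than in 1 direction. Ifi211, the family gene that lies inside Mndal, was high where Ifi202b was at 0, with 72, 17 and 54 counts in the YUMM2.1 controls and 4, 3 and 1 in the CT26 controls, a ratio of 17.6 (95% counting interval 8.72 to 41.7) and a log2 difference of CT26 less YUMM2.1 of -4.02 ± 0.47 (adjusted p = 1.32e-11). Since 86.4% of its 3′ words also occur in Ifi205, the count of Ifi211 may hold reads of that copy. Ifi206 had 72 counts over the YUMM2.1 samples and 0 over the CT26 samples, at least 16.9-fold higher in YUMM2.1. The pseudogene Ifi203-ps had 152 counts in YUMM2.1 and 7 in CT26. Whether reads from BALB/c alleles were assigned less often to C57BL/6 reference transcripts was not tested, and line and strain cannot be told apart here.

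**Figure D1:**
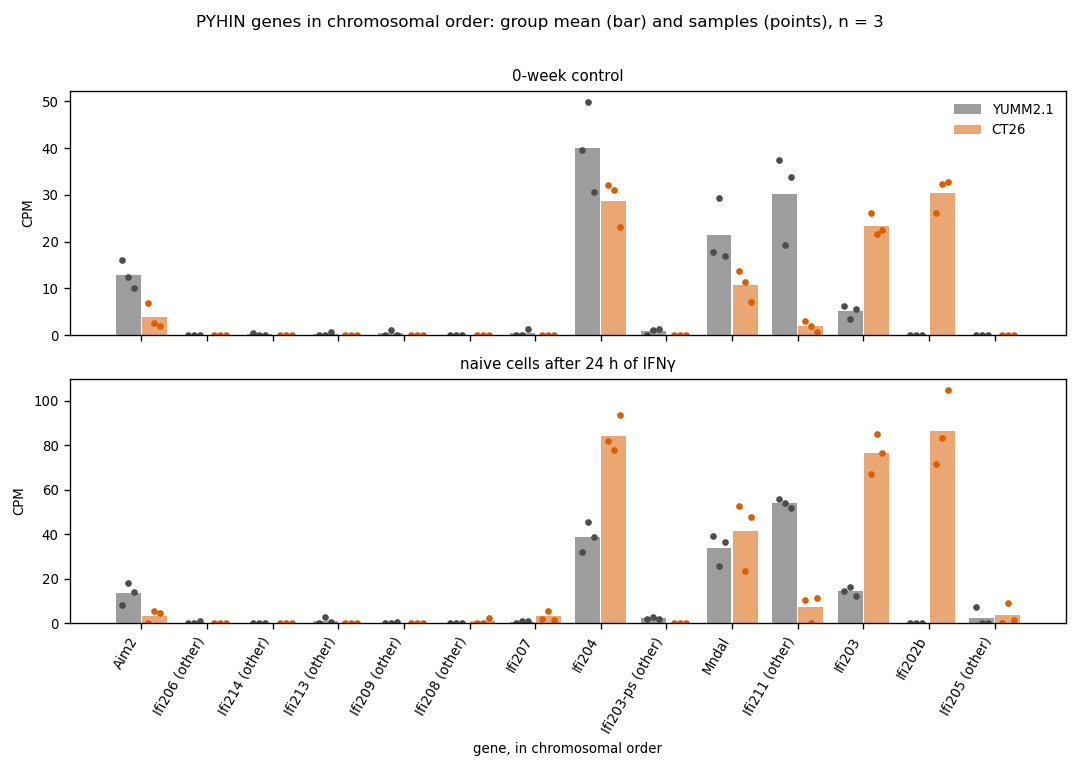
Level in CPM of 14 PYHIN genes in their order along chromosome 1, in the 0-week controls (top) and in naive cells after 24 h of IFNγ (bottom), with bars for the group mean and points for the 3 samples of YUMM2.1 (grey) and CT26 (orange). Ifi202b had counts in the CT26 samples alone, Ifi211 was high in YUMM2.1, and after 24 h Ifi204, Ifi203 and Ifi202b stood at 84.4, 76.3 and 86.5 CPM in CT26.

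The first exposure of naive cells to IFNγ asked whether the family responded acutely. In CT26 at 24 h, all 5 members that passed the filter were higher than in the control, while 2.04% of the 8516 genes tested passed in either direction. Ifi207 was undetected in these controls and could pass the filter only through groups given IFNγ. Its place among the 5 was thus partly set by the filter. The counts in the 24 h samples ran from 34 to 131 for Ifi202b, where replicate 3 was sequenced most deeply, so that the comparison is best seen in CPM. Ifi202b went from 26.0, 32.4 and 32.8 CPM in the controls to 71.4, 83.3 and 105 CPM, a log2 fold change of 1.56 ± 0.20 (adjusted p = 1.22e-07). Every treated sample was above every control for this gene and for the 4 others. How many of all genes separated in this way was not counted.

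Ifi203 rose from 23.4 ± 2.35 to 76.3 ± 8.9 CPM, with 34, 32 and 35 counts before and 32, 47 and 96 after IFNγ in smaller libraries, a log2 fold change of 1.73 ± 0.21 (adjusted p = 3.72e-08). Ifi204, the STING-linked sensor, rose from 28.8 ± 4.9 to 84.4 ± 8.2 CPM (log2 fold change 1.59 ± 0.20, adjusted p = 1.53e-07). Mndal stood at 52.5, 23.5 and 48.0 CPM against 13.8, 11.5 and 7.08 CPM in the controls, with a log2 fold change of 1.98 ± 0.29 (adjusted p = 3.05e-06). These 4 calls held under all 9 alternatives tried. More expressing cells and more RNA per cell cannot be told apart in such bulk cultures.

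Ifi207 was scarce, with 0 counts in the 3 CT26 controls and 1, 3 and 2 counts at 24 h, which is at least 3.81-fold higher at a floor of 3 counts over the group. Its adjusted p of 0.0462 was lost under 6 of 8 alternatives, DESeq2, the unfiltered fit, the fit with replicate number as a block and each omission of a replicate number, and ran up to 0.692. Aim2 did not pass the filter in CT26. It had 0, 3 and 6 counts at 24 h against 9, 4 and 3 in the controls, a ratio of the pooled CPM of 1.07 with a counting interval of 0.417 to 2.58, which leaves room for a change of either direction.

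At 2 h no member passed the test in naive CT26 cells by edgeR or DESeq2, although 4 of 5 had an unadjusted p under 0.05 by edgeR, and 0.235% of all genes tested passed. Ifi203 stood at 48, 56 and 59 counts (40.3 ± 6.1 CPM) and was above every control, with a log2 fold change of 0.78 ± 0.21 (adjusted p = 0.195). Ifi202b was also above every control, at 42.1 ± 7.3 CPM, and Ifi207 had 3, 2 and 2 counts against 0 in the controls, at least 2.49-fold higher.

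In naive YUMM2.1 cells no member passed the test. At 2 h this was 0 of 5 by edgeR and by DESeq2, with 1 at an unadjusted p under 0.05 and 0.24% of the 9589 genes tested passing. At 24 h it was again 0 of 5 by both tools, with 2 at an unadjusted p under 0.05 and 0.886% of all genes passing. Ifi203 was nevertheless above every control at both times, with 29, 29 and 15 counts at 2 h and 14, 17 and 31 at 24 h against 12, 3 and 9, that is 14.3 ± 4.8 and 14.3 ± 2.0 CPM against 5.09 ± 1.5 CPM. Its log2 fold change was 1.39 ± 0.37 at 2 h (adjusted p = 0.168) and 1.41 ± 0.38 at 24 h (adjusted p = 0.0613). Ifi211, the neighbouring family gene that is abundant in YUMM2.1, rose from 72, 17 and 54 counts (30.2 ± 9.7 CPM) to 54, 57 and 132 counts (54.0 ± 2.0 CPM) at 24 h, a log2 fold change of 0.81 ± 0.21 (adjusted p = 0.0492) that was lost with any replicate number left out (adjusted p up to 0.495), with no filter and with the compared groups only. It also rose in YUMM2.1 at the 2 h rechallenge after 1, 2 and 3 weeks, by 0.83, 0.87 and 0.98, and at the 24 h rechallenge after 1 and 2 weeks, by 0.95 and 0.83.

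Ifi204 in naive YUMM2.1 cells had a log2 fold change of 0.04 ± 0.22 at 24 h, with an interval of -0.40 to 0.47, and its 3 samples, at 32.1, 45.6 and 39.0 CPM, lay within the range of the controls. Mndal had 38, 27 and 93 counts at 24 h and a log2 fold change of 0.79 ± 0.30 (adjusted p = 0.461), with samples that overlapped the controls. Aim2 had 8, 19 and 36 counts at 24 h, and its log2 fold change of 0.11 ± 0.32 had an interval of -0.51 to 0.73. Ifi202b stayed at 0 counts.

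The 24 h response of Ifi204 was larger in CT26 than in YUMM2.1 by 1.58 ± 0.31 on the log2 scale (adjusted p = 0.00566), the single member of 6 for which the difference between the lines passed the test, against 0.087% of all genes. That call was lost when the fit was limited to the compared groups and when any replicate number was left out, with an adjusted p of up to 0.505. For Ifi203 the difference between the lines was 0.37 ± 0.45, with an interval of -0.51 to 1.24 (adjusted p = 0.889), and for Mndal it was 1.23 ± 0.43 (adjusted p = 0.495). The 2 h responses differed between the lines for 0 of 6 members by edgeR and DESeq2, with 1 at an unadjusted p under 0.05, and for 0% of all genes. The response of Ifi202b could not be compared, since it was at 0 in YUMM2.1.

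Chronic exposure without rechallenge was compared with the control of the same week. CT26 cells gained PYHIN transcripts most clearly at 3 weeks, when all 5 members tested were higher, against 7.23% of all genes tested. Ifi207, undetected in the 3-week controls too, was again among the 5 only because IFNγ groups carried it past the filter. None of the samples of the 5 overlapped the controls, a separation that was not counted over all genes. Ifi203 rose from 14, 28 and 45 counts (19.2 ± 6.3 CPM) to 91, 74 and 13 counts (73.1 ± 24.0 CPM), where the third sample was the shallow one, and its log2 fold change was 1.98 ± 0.21 (adjusted p = 1.55e-09). Mndal rose from 13.7 ± 1.5 to 61.9 ± 19.1 CPM (2.06 ± 0.27, adjusted p = 3.29e-07). Ifi204 rose from 27.7 ± 5.1 to 89.5 ± 4.9 CPM (1.69 ± 0.21, adjusted p = 4.87e-08), and it had the tightest spread of the 3, at 84.7, 89.5 and 94.4 CPM.

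Ifi202b rose less at 3 weeks in CT26, from 42, 50 and 69 counts (37.2 ± 1.8 CPM) to 61, 58 and 28 counts (74.8 ± 20.8 CPM), a log2 fold change of 0.91 ± 0.20 (adjusted p = 0.00266). Its call was lost without replicate 2 (adjusted p = 0.0524) and without replicate 3 (adjusted p = 0.0736). Without the shallow samples the change of Ifi202b was 0.76 (adjusted p = 0.0168), and those of Ifi203, Ifi204 and Mndal were 2.14, 1.67 and 1.88. Ifi207 went from 0 counts in the 3 controls to 7, 10 and 4, at least 13.9-fold higher (adjusted p = 3.44e-05), and held under all 8 alternatives that gave a value. Aim2 had 3, 0 and 3 counts against 10, 4 and 2, a ratio of the pooled CPM of 0.745 with a counting interval of 0.239 to 2.00.

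At the earlier weeks CT26 cells showed smaller differences. At 1 week 0 of 5 members passed by edgeR and DESeq2, with 3 at an unadjusted p under 0.05 and 0.728% of all genes passing, although Ifi203 and Mndal were above every control. Ifi203 had 59, 24 and 9 counts against 27, 28 and 54, that is 36.4 ± 8.1 against 25.1 ± 4.1 CPM. At 2 weeks Ifi204 alone passed, with 39, 56 and 77 counts (47.6 ± 10.2 CPM) against 37, 14 and 18 (21.6 ± 6.7 CPM), a log2 fold change of 1.08 ± 0.23 (adjusted p = 0.00267), against 1.67% of all genes. This call was lost without replicate 2 or 3, with an adjusted p of up to 0.356.

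In YUMM2.1, 1 member passed at each week, and it was not the same one throughout. At 1 week Ifi203 had 34, 30 and 5 counts (13.7 ± 3.9 CPM) against 13, 15 and 17 (5.58 ± 0.17 CPM), a log2 fold change of 1.41 ± 0.34 (adjusted p = 0.0224), against 0.73% of all genes. At 2 weeks Ifi203 had 28, 5 and 37 counts against 3, 2 and 7, with 1 treated sample at 4.21 CPM inside the control range of 1.91 to 5.65 CPM, and a log2 fold change of 1.98 ± 0.43 (adjusted p = 0.00456), against 1.12% of all genes. The first of these calls was lost with any replicate number left out, and the second without replicate 1 or 3, with adjusted p up to 0.822 and 0.689.

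At 3 weeks the member that passed in YUMM2.1 was Mndal, with 81, 19 and 19 counts against 38, 45 and 58, a log2 fold change of 1.17 ± 0.30 (adjusted p = 0.0354), against 0.97% of all genes. Its samples, at 46.1, 17.6 and 56.1 CPM, included 1 within the control range of 16.0 to 19.0 CPM, and the highest was the shallow sample. Without the shallow sample the call of Mndal was lost, at a log2 fold change of 1.00 (adjusted p = 0.166), as it was without replicate 1, at 0.85 (adjusted p = 0.628), and without replicate 3, at 1.08 (adjusted p = 0.146). Ifi203 then had 20, 11 and 7 counts against 13, 29 and 29, and a log2 fold change of 0.57 ± 0.36 (adjusted p = 0.62). Ifi204 was above every control at 1 and 2 weeks, with log2 fold changes of 0.62 ± 0.21 and 0.48 ± 0.22 that did not pass (adjusted p = 0.332 and 0.637).

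The difference between the lines in the 3-week chronic response passed the test for 0 of 6 members by edgeR and DESeq2, with 4 at an unadjusted p under 0.05 and 0.106% of all genes passing. The difference was 1.49 ± 0.40 for Ifi203 (adjusted p = 0.14, interval 0.71 to 2.27) and 1.11 ± 0.31 for Ifi204 (adjusted p = 0.191, interval 0.51 to 1.72), both higher in CT26. Without the shallow samples the difference for Ifi203 passed the test (adjusted p = 0.0353). Time in culture alone, the 3-week against the 0-week control, gave 0 of 5 members in each line by edgeR and DESeq2, with 0 at an unadjusted p under 0.05 in both, against 0.521% of all genes in YUMM2.1 and 0.916% in CT26.

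**Figure D2:**
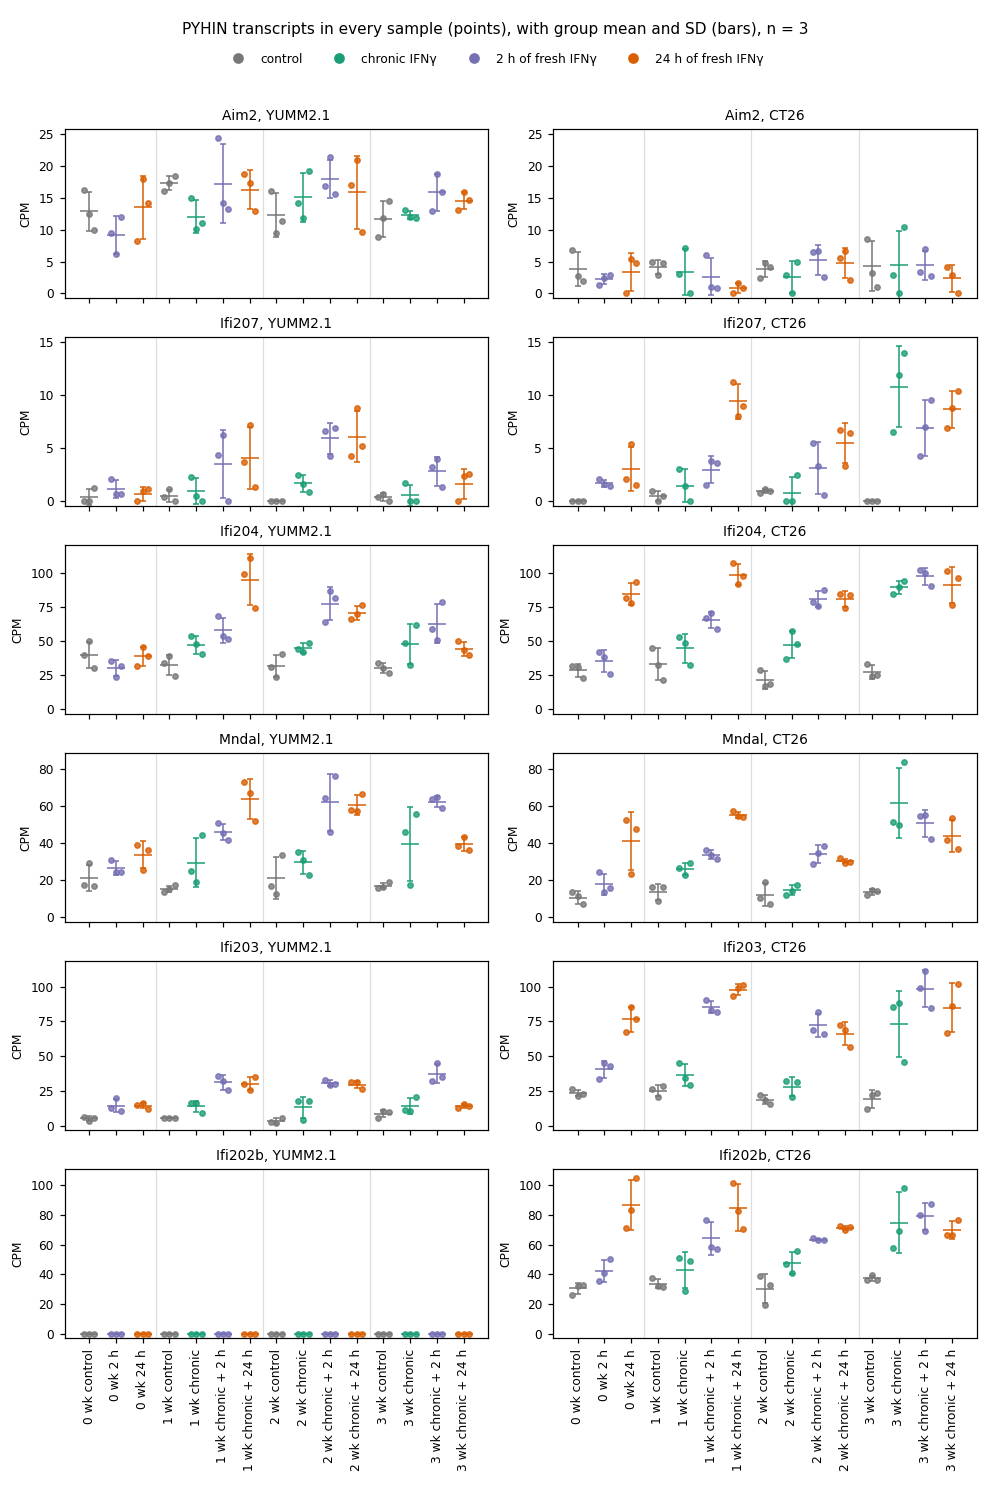
Level in CPM (vertical axes) of the 6 PYHIN members in each of the 15 groups of YUMM2.1 (left) and CT26 (right), with the 3 samples as points, the group mean as a line and SD as bars. Ifi202b was at 0 in every YUMM2.1 group, and Aim2 was between 9.21 and 18.0 CPM on average in YUMM2.1 and between 0.837 and 5.28 CPM in CT26.

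Rechallenge, fresh IFNγ on chronically exposed cells, was compared with the chronic cells of the same week. In CT26 at 24 h the number of members higher was 4 of 5 after 1 week, 2 of 5 after 2 weeks and 0 of 5 after 3 weeks, against 1.32%, 0.658% and 0% of all genes. After 1 week Ifi203 reached 91, 123 and 112 counts (97.8 ± 4.1 CPM), a log2 fold change of 1.34 ± 0.20 (adjusted p = 2.16e-05), and Ifi204, Mndal and Ifi202b rose by 1.05 ± 0.20, 1.09 ± 0.27 and 0.98 ± 0.20. Ifi207, with 11, 10 and 10 counts against 4, 1 and 0, did not pass (adjusted p = 0.184). Leaving out replicate numbers took away each of these calls at least once, other than that of Ifi203.

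After 2 weeks Ifi203 and Ifi204 rose in CT26 at 24 h, by 1.21 ± 0.20 (adjusted p = 0.000116) and 0.77 ± 0.19 (adjusted p = 0.0303), from 28.0 ± 6.5 to 66.1 ± 8.2 CPM and from 47.6 ± 10.2 to 80.9 ± 5.9 CPM. Both calls were lost without replicate 2, and that of Ifi204 without any replicate number. After 3 weeks none of the 5 passed by edgeR or DESeq2, and none had an unadjusted p under 0.05. Ifi204 had 73, 78 and 102 counts (91.3 ± 13.3 CPM) against 90, 75 and 27 (89.5 ± 4.9 CPM), a log2 fold change of 0.03 ± 0.19 with an interval of -0.34 to 0.41. Ifi202b stood at 69.8 ± 5.8 against 74.8 ± 20.8 CPM, with an interval of -0.40 to 0.40.

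The change in this response was tested directly in CT26, as the 24 h response after 3 weeks less that of naive cells. It was smaller after 3 weeks for 4 of 5 members, against 1.2% of all genes. The difference was -1.56 ± 0.28 for Ifi202b (adjusted p = 0.000235), -1.60 ± 0.28 for Ifi203 (adjusted p = 0.000164), -1.56 ± 0.28 for Ifi204 (adjusted p = 0.000216) and -2.38 ± 0.39 for Mndal (adjusted p = 3.36e-05). For Ifi204 the naive cells went from 28.8 to 84.4 CPM in 24 h and the chronic cells from 89.5 to 91.3 CPM. The comparison holds both the 3-week chronic and the 24 h naive samples, so these 4 values share data with the 2 comparisons above. The call for Ifi204 held with each replicate number left out, whereas those of Ifi202b and Mndal were lost without replicate 3 (adjusted p = 0.0623 and 0.111) and that of Ifi203 without replicate 2 (adjusted p = 0.109).

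The 2 h rechallenge in CT26 raised Ifi203 after 1 week, from 36.4 ± 8.1 to 85.1 ± 4.5 CPM (1.13 ± 0.21, adjusted p = 0.00125), the single member that passed, against 0.376% of all genes. After 2 weeks Ifi203 rose from 28.0 ± 6.5 to 72.0 ± 8.2 CPM (1.32 ± 0.19, adjusted p = 3.02e-05) and Mndal from 14.7 ± 2.6 to 34.3 ± 4.9 CPM (1.17 ± 0.27, adjusted p = 0.0258), 2 of 5 members against 0.305% of all genes. Both Ifi203 calls were lost without replicate 2, and that of Mndal without any replicate number. After 3 weeks 0 of 5 passed by edgeR or DESeq2, with 0 at an unadjusted p under 0.05, against 0.0117% of all genes. The 2 h response after 3 weeks less that of naive cells passed for 0 of 5 members by edgeR and DESeq2, with 2 at an unadjusted p under 0.05, against 0.211% of all genes.

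In YUMM2.1 the 24 h rechallenge raised 2 of 5 members after 1 week, 1 after 2 weeks and 0 after 3 weeks, against 1.42%, 0.615% and 0% of all genes. After 1 week Ifi204 had 106, 154 and 110 counts against 115, 90 and 22 in chronic cells, that is 95.1 ± 18.8 against 47.6 ± 6.6 CPM (0.98 ± 0.20, adjusted p = 0.00228). This was the highest group mean of Ifi204 in YUMM2.1. Mndal rose from 29.7 ± 13.2 to 64.2 ± 10.8 CPM after 1 week (adjusted p = 0.00431) and from 29.8 ± 6.2 to 60.8 ± 5.2 CPM after 2 weeks (1.10 ± 0.27, adjusted p = 0.037). These 3 calls were lost without replicate 1 and also without replicate 2, with adjusted p up to 0.49.

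Ifi203 in YUMM2.1 had log2 fold changes of 1.07 ± 0.31 and 1.13 ± 0.31 at 24 h after 1 and 2 weeks, which did not pass (adjusted p = 0.07 and 0.0848), and of 0.15 ± 0.36 after 3 weeks, at 15, 26 and 27 counts against 20, 11 and 7. No member passed after 3 weeks by edgeR or DESeq2, and none had an unadjusted p under 0.05. The 24 h response after 3 weeks less that of naive YUMM2.1 cells passed for 0 of 5 members by both tools, with 1 at an unadjusted p under 0.05, against 0.615% of all genes. That difference was -1.26 ± 0.53 for Ifi203, with an interval of -2.29 to -0.22 (adjusted p = 0.641).

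At 2 h of rechallenge in YUMM2.1, 0 of 5 members passed after 1 week by edgeR, with 2 at an unadjusted p under 0.05 and 1 by DESeq2, against 0.615% of all genes. After 2 weeks Mndal passed, with 145, 43 and 88 counts against 57, 37 and 49, from 29.8 ± 6.2 to 62.3 ± 15.4 CPM (1.10 ± 0.27, adjusted p = 0.0406), against 0.428% of all genes. After 3 weeks Ifi203 passed, with 50, 79 and 52 counts against 20, 11 and 7, from 14.1 ± 5.7 to 37.3 ± 6.8 CPM (1.60 ± 0.33, adjusted p = 0.00331), against 1.08% of all genes. All 3 rechallenged samples were above all 3 chronic samples in both cases. Each call was lost without replicate 1, that of Mndal also without replicate 3 and that of Ifi203 without replicate 2. The 2 h response after 3 weeks less that of naive cells passed for 0 of 5 members by both tools, with 1 at an unadjusted p under 0.05, against 0.115% of all genes.

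**Figure D3:**
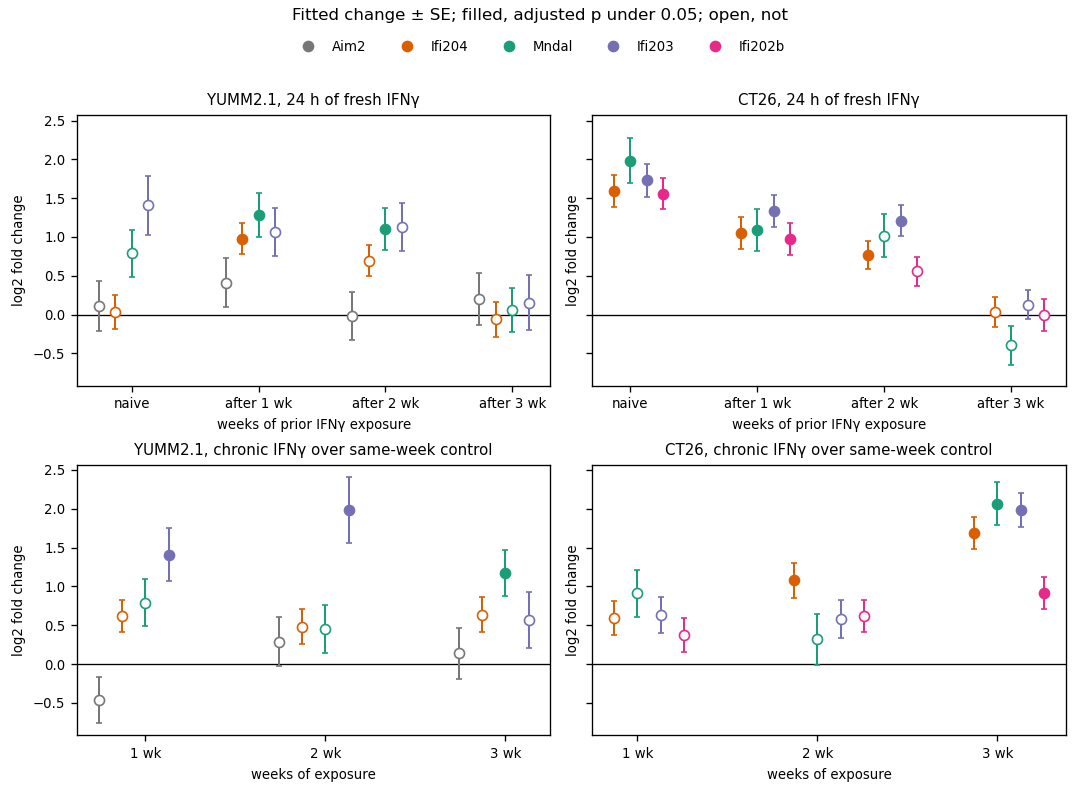
Fitted log2 fold change with SE bars of 5 PYHIN members in YUMM2.1 (left) and CT26 (right), for 24 h of fresh IFNγ by weeks of prior exposure (top) and for chronic IFNγ over the control of the same week (bottom); filled points passed the test, and Ifi207 is left out because of its zero groups. In CT26 the 24 h change of Ifi204 fell from 1.59 in naive cells to 0.03 after 3 weeks, while its chronic change was 1.69 at 3 weeks.

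Across the 15 groups of a line, the group means of each member were put in order. Of the 14 pairs of neighbours in the order of group means, the samples of both groups failed to overlap in 0 to 2 pairs per member and line. Sorting sets the closest means side by side, which favours overlap for any gene, and this number was not compared with other genes. The lowest mean of Ifi204 in CT26 was in the 2-week control (21.6 ± 6.7 CPM) and the highest after 1 week plus 24 h (98.9 ± 8.0 CPM). Ifi203 ran from 18.6 ± 3.4 CPM in the CT26 2-week control to 98.4 ± 13.3 CPM after 3 weeks plus 2 h, and in YUMM2.1 from 3.29 ± 2.06 CPM in the 2-week control to 37.3 ± 6.8 CPM after 3 weeks plus 2 h. In CT26 the 4 control groups had the lowest 4 means of Ifi202b, Ifi203, Ifi204 and Mndal. In YUMM2.1 the same held for Ifi203, Ifi207 and Mndal but not for Ifi204.

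Aim2 did not follow this order. In YUMM2.1 it was counted in all 45 samples (4 to 58 counts, median 21) and its lowest adjusted p over the comparisons within this line was 0.501 by edgeR. Its lowest group mean was in naive cells at 2 h (9.21 ± 2.98 CPM) and its highest after 2 weeks plus 2 h (18.0 ± 3.0 CPM), and no neighbouring pair of groups was free of overlap. At 1 week the 3 chronic samples (12.1 ± 2.6 CPM) were all below the 3 controls (17.3 ± 1.1 CPM), but the log2 fold change of -0.46 ± 0.30 did not pass (adjusted p = 0.918). At the 24 h rechallenge after 3 weeks the 3 samples (14.6 ± 1.4 CPM) were instead all above the 3 chronic ones (12.3 ± 0.68 CPM), with a log2 fold change of 0.21 ± 0.33 that did not pass either (adjusted p = 1). In CT26 Aim2 was counted in 39 of 45 samples, with at most 12 counts.

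Ifi207 was the other member of low count, at 0 to 15 counts in YUMM2.1 (32 of 45 samples) and 0 to 11 in CT26 (35 of 45 samples). In YUMM2.1 it had 0 counts in the 3 controls of week 2 and 4, 2 and 2 in the chronic cells, at least 1.94-fold higher, and then 15, 4 and 8 counts after 2 h and 3, 8 and 13 after 24 h of rechallenge. All 6 rechallenged samples of week 2 were above the chronic samples in CPM, but neither difference passed (adjusted p = 0.755 and 0.763). At such counts differences below several-fold were not detectable.

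The sum of the 6 members was 97.2 ± 8.9 CPM in naive CT26 controls and 295 ± 29.9 CPM at 24 h, a ratio of 3.04, and 102 ± 1.7 and 315 ± 29.1 CPM at 3 weeks, a ratio of 3.09. In YUMM2.1 the sums were 79.8 ± 15.4 and 101.3 ± 6.2 CPM in naive cells, a ratio of 1.27, and 68.4 ± 3.3 and 115 ± 39.5 CPM at 3 weeks, a ratio of 1.68. Summing all 14 PYHIN genes, which keeps reads that counting may have moved between copies, gave ratios of 3.09 and 3.07 in CT26 and of 1.45 and 1.35 in YUMM2.1. The wide SD at 3 weeks in YUMM2.1 came from samples at 121, 72.3 and 150 CPM.

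The genes around the family were counted by list. Of 15 AIM2 inflammasome and pyroptosis genes, 4 were tested in each line, with a median log2 fold change at 24 h of 1.02 in CT26 and 0.61 in YUMM2.1, beside -0.02 and 0.02 over all genes tested. The 4 were not all the same genes in both lines, so these medians cannot be compared between the lines. Zbp1, a nucleic acid sensor of cell death pathways, rose by 5.59 ± 0.22 and 6.30 ± 0.38, and Casp1, the inflammasome caspase, rose by 1.65 ± 0.35 and 0.99 ± 0.21. At 3 weeks Zbp1 and Casp1 were higher in CT26 (4.53 and 1.35) and Zbp1 in YUMM2.1 (5.85). Between the control lines Gsdmd and Gsdme, the pore-forming gasdermins, and Zbp1 were higher in CT26, by 5.80, 1.80 and 3.18, and Casp1 was lower by a log2 difference of -2.21, so that Casp1 and Aim2 were both lower in CT26.

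Of 12 genes of STING DNA sensing, 9 were tested in CT26, with a median of 0.74 at 24 h, when 2 rose, Irf7 by 3.79 ± 0.33 and Trim30a by 2.59 ± 0.40. At 3 weeks 3 were higher, Irf7 by 4.76, Trim30a by 2.70 and Trim56 by 2.54, and Samhd1 was lower (-0.47). In YUMM2.1, 7 were tested, the lowest adjusted p at 24 h was 0.297 (Samhd1) and the median was 0.06. At 3 weeks Samhd1 was lower there (-0.60). At the 2 h rechallenge after 3 weeks 2 of these 7 were higher, against 1.08% of all genes. In CT26, 2 of 9 were higher at 1 chronic week, 1 at 2 chronic weeks and 1 at 24 h rechallenge after 1 week. The shares of all genes there were 0.728%, 1.67% and 1.32%. The CT26 24 h response after 3 weeks less that of naive cells was lower for 2 of 9, against 1.2%. Between the control lines 3 genes of the list were higher in CT26, Trim30a by 5.48, Irf7 by 5.30 and Samhd1 by 2.08, and the STING gene itself, listed as Tmem173, was lower (-0.76 ± 0.23, adjusted p = 0.00465). Of 10 genes of IFNγ signalling, 9 were tested in each line, with medians at 24 h of 0.24 in CT26 and 0.84 in YUMM2.1, and Irf1, an interferon-induced transcription factor, passed in both lines at 2 h and at 24 h. At 24 h Irf1 rose by 2.31 ± 0.27 in CT26 and by 2.82 ± 0.23 in YUMM2.1. In the same YUMM2.1 samples none of the 5 members tested passed, which does not show that they did not respond. By edgeR, Ifi203 changed there by 1.41 ± 0.38 (adjusted p = 0.0613) and Ifi211 by 0.81 ± 0.21 (adjusted p = 0.0492). Any link between the rise of Irf1 and the members was not tested. Of 12 partners of p202 and p204, 11 were tested in CT26 (median -0.18 at 24 h) and 10 in YUMM2.1 (median 0.07), and the lowest adjusted p at 24 h and at 3 weeks was 0.0560, that of E2f4 at 24 h in CT26. Other comparisons held calls of this list, all higher. In CT26 Id2 and Id3, inhibitors of DNA binding, rose at 1 week of rechallenge, by 1.46 and 0.82 at 2 h and by 1.13 and 0.85 at 24 h, Id2 rose by 0.80 at 2 h after 2 weeks, and both were higher in the 3-week than in the 0-week control, by 1.22 and 0.78. In YUMM2.1 Id3 rose after 2 weeks, by 1.09 at 2 h and 1.26 at 24 h, and Id2 after 3 weeks, by 0.75 at 2 h. E2f4 and Id1 were higher in the CT26 than in the YUMM2.1 controls, by 1.98 and 0.77.

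The pattern over the 15 group means of log2 CPM was compared between genes by Pearson's r, as a description over groups that share libraries and depth. The genes most like Ifi202b in CT26 were the guanylate-binding protein genes Gbp9 (0.971), Gbp4 (0.969) and Gbp2b (0.968), and Gbp9 was also among the 3 most like Ifi204 (0.976), with Gm43302 (0.977) and Gbp4 (0.971). Mndal in CT26 was most like Stat2 (0.965), Gm8995 and Mov10, and Ifi203 most like F830016B08Rik (0.970), Gm8995 and Batf2. In YUMM2.1 Ifi203 was most like Dtx3l (0.971) and Mndal most like Gm4951 (0.963) and Parp9 (0.963). Ifi204 in YUMM2.1 was most like Apol10b (0.926) and the antigen presentation genes H2-K1 (0.923) and H2-DMa (0.923). Aim2 stood apart from this set, with Itgb3 (0.845), Hbegf (0.825) and Prss22 (0.795) as the genes most like it. Between members r was 0.857 to 0.974 in CT26, where Aim2 was not tested, and 0.491 to 0.927 in YUMM2.1, where the pairs with Aim2 gave 0.491 to 0.686.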

How the data were processed

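Counts were those the authors deposited, as whole numbers per gene for 90 samples, made from paired-end 3′ libraries. The submitters' processing notes name Salmon 0.13.1 and the mm10 assembly, and the study's methods name tximport. The annotation release and any use of molecular identifiers are not given in the sources used here, and the study's discarded outliers are not named, so all samples were kept. Gene symbols came from GENCODE identifiers (53668 of 53697 matched). Each line was fitted with edgeR 4.0.16 (R 4.3.3) over its 15 groups, with TMM scaling, filterByExpr and the quasi-likelihood test, leaving 9589 genes in YUMM2.1 and 8516 in CT26, and lines were compared in 1 fit of 90 samples (10339 genes). The fit was tested on simulated data. CPM used the joint TMM library sizes, and counting intervals (95%) and floors (3 counts) cover counting error only, without regard to PCR copies. Replicate numbers showed no consistent pairing of the samples. The genes named are the 6 members, other PYHIN genes, for each list at most 3 genes of the largest change among those that passed, and for likeness the 3 genes of highest r (prior count 2). Members and lists were chosen with earlier results of these data known. Alternatives were DESeq2 1.42.0, library totals, no filter, compared groups only, a replicate block, and samples left out. Sequences were taken from RefSeq (GRCm38.p6). Some genes of the lists are not reported here.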

Additional observations from a re-analysis of the deposited data

Results flagged for a closer look

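In CT26 the 24 h response after 3 weeks of IFNγ differed from that of naive cells by the contrast of both responses in the edgeR fit, adjusted over all genes (adjusted p = 3.36e-05 to 0.000235). The difference was -1.56 for Ifi202b, -1.60 for Ifi203, -1.56 for Ifi204 and -2.38 for Mndal on the log2 scale. Only the call for Ifi204 held with each replicate number left out.

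Between the lines, the naive 24 h response of Ifi204 was larger in CT26 than in YUMM2.1 by 1.58 on the log2 scale, by the same kind of contrast in the joint fit. That call was lost with the compared groups only and with any replicate number left out (adjusted p up to 0.505 by edgeR).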

How the results depend on the processing

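Of the 32 counts of members that passed the test, DESeq2 changed 2 by more than 1.5 times, YUMM2.1 2 h rechallenge at 1 week (from 0 to 1) and at 2 weeks (from 1 to 3). Library totals changed 3, all in YUMM2.1, the 2 h rechallenge at 1 week (from 0 to 1) and the 2 h and 24 h rechallenges at 2 weeks (from 1 to 0). Fitting the compared groups only changed 7, the YUMM2.1 1-, 2- and 3-week chronic and 3-week 2 h counts (from 1 to 0), the YUMM2.1 24 h count at 1 week (from 2 to 1), the CT26 2 h count at 2 weeks (from 2 to 1) and the line difference in the naive 24 h response (from 1 to 0). Without the shallow samples the YUMM2.1 3-week chronic count went from 1 to 0 and the line difference in the 3-week chronic response from 0 to 1. No filter changed 0 counts by that much.

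With the replicate number as a block 0 of 32 counts changed by more than 1.5 times, with CT26 naive 24 h at 4 in place of 5 and CT26 2 h at 2 weeks at 3 in place of 2. The numbers showed no consistent pairing of the samples. Of 3 numbers, 13 of 45 YUMM2.1 and 21 of 45 CT26 samples correlated best with their own, and some would do so without any pairing. In 0 of 12 comparisons per line did every same-number pair exceed a correlation of 0.1, although a single CT26 pair reached 0.206. Whether samples of the same number shared a batch was not tested.

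With 1 replicate number left out, the counts ranged from 0 to 0 in YUMM2.1 1-week chronic, 24 h at 2 weeks and the line difference in the naive 24 h response, from 0 to 1 in YUMM2.1 2- and 3-week chronic and 2 h at 1, 2 and 3 weeks and in CT26 2-week chronic, 2 h at 1 and 2 weeks and 24 h at 2 weeks, from 0 to 2 in YUMM2.1 24 h at 1 week, from 1 to 3 in CT26 24 h at 1 week and from 2 to 4 in the CT26 24 h response after 3 weeks less naive. CT26 naive 24 h stayed at 4 and 3-week chronic at 4 to 5. No single value reversed. The causes were not tested, other than that these fits hold fewer samples.

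Library totals moved the median of all genes by over 0.1 in CT26 3-week chronic (0.20) and in the control lines (-0.16), and turned the direction of 0 of 37 member calls. A prior count of 0.5 moved 3 of 12 levels, Ifi207 in both lines and Ifi202b in YUMM2.1, and Spearman's rho kept 0 to 2 of the 3 genes most like each member. Depth limited Aim2 in CT26 and Ifi207 in both lines most.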
